A study of Mus musculus with 8 samples.

Results

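The galactolipid and sphingolipid synthesis enzymes are followed here as a group of 10 genes, namely Sptlc1, Sptlc2, Cers2, Cers5, Degs1, Fa2h, Ugt8a, Gal3st1, Ugcg and Sgms1. They were taken by name, for the step of the pathway that each enzyme carries out, out of 24346 genes listed in the expression table, and all 10 were found. The choice was made with earlier results of these data known. RNA-seq libraries were made from induced immature oligodendrocytes (iOLs), 4 of genotype Med23+/+ and 4 of genotype Med23-/-, 8 in all. OPCs, the precursors of oligodendrocytes (OLs), were immunopanned on a CD140a antibody from brains of mice at postnatal day 7, after plates that hold back endothelial cells and microglia. They were expanded with the mitogens PDGF-AA (10 ng/mL) and NT-3 (1 ng/mL) and then received 15 nM T3, the active thyroid hormone, and 10 ng/mL CNTF, a cytokine, for 1 day in both genotypes. The Med23-/- cells come from Med23 fl/fl mice with Olig1-Cre, a Cre for the oligodendrocyte lineage, and the controls of the study, labelled WT, are described as Med23 fl/fl mice without Cre. The labels do not say how many mice gave each library or whether the 4 libraries of a genotype came from separate cultures, so p-values measure the spread between these libraries, which may be technical.

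Sphingolipids are built on a long-chain base. Serine palmitoyltransferase joins serine and palmitoyl-CoA to make it, a ceramide synthase adds a fatty acid, and a desaturase turns the product into ceramide. Ceramide then takes a head group. Phosphocholine gives sphingomyelin, glucose gives glucosylceramide, the first step towards gangliosides, and galactose gives galactosylceramide, which a sulfotransferase converts to sulfatide. Galactosylceramide and sulfatide are the typical glycolipids of myelin, where many of them carry very long and hydroxylated fatty acids. Oligodendrocytes turn on the galactose branch as they differentiate.

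The upstream sequences of 3 of these genes are shown because they represent both outcomes described below. Ugt8a and Gal3st1, which act one after the other in the galactose branch, were lower in Med23-/- iOLs, and Sptlc2, which feeds every branch, did not pass the test. Each is the 250 bases before the RefSeq start on GRCm38.p6 (mm10), 5′ to 3′ on the strand of the gene and outside its annotated transcripts. Capitals mark GC boxes, the core letters GGGCGG recognised by Sp1-type zinc finger factors, and CCAAT boxes, on either strand.
Ugt8a, chr3:125938653-125938902, minus strand: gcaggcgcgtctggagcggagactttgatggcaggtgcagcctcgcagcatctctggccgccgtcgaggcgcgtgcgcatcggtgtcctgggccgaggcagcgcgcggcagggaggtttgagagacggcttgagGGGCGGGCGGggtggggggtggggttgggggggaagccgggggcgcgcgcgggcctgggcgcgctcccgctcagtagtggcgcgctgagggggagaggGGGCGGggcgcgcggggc
Gal3st1, chr11:3983386-3983635, plus strand: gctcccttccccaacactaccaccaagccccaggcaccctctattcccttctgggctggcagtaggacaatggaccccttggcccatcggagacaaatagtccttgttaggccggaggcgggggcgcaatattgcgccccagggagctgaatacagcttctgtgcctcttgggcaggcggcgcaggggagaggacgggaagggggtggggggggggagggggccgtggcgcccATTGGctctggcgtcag
Sptlc2, chr12:87388356-87388605, minus strand: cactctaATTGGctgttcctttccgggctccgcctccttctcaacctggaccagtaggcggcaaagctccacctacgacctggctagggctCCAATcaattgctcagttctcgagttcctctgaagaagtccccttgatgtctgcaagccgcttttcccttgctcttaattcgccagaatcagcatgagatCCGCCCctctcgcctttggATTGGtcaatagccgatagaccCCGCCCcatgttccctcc
The Ugt8a stretch held 3 GC boxes, a pair of them overlapping in GGGCGGGCGG, and 0 CCAAT boxes. The Gal3st1 stretch held 0 GC boxes and 1 CCAAT box read on the other strand. The Sptlc2 stretch held 2 GC boxes, both on the other strand, and 3 CCAAT boxes. In the windows from 250 bases before to 50 after each start, which 9 of the 10 genes had in the RefSeq table (all but Fa2h), GGGCGG stood in 7 of 9, against 38.2% of all genes in the table. CCAAT stood in 5 of 9 genes against 41.1%, TATAAA in 1 of 9 against 15.7%, and the sterol regulatory element core TCACCCCAC in 0 of 9 against 0.614%, each searched on both strands. Gal3st1 and Degs1 were the genes without a GC box in any window. Both were lower in Med23-/- iOLs, as were Ugt8a and Cers2, which had GC boxes, and Fa2h, which had no window. The Degs1 window (chr1:182282146-182282445) lay inside the annotated gene and matched no transcript, so the bases before the outermost Degs1 start were not searched. The shares of all genes were taken without regard to expression, and Sgms1 counted through any of its 4 windows. The GC boxes of Cers5 and Ugcg lay only in the part of the window within annotated transcripts. These matches are letters in a window and say nothing on binding.

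Med23 itself, measured over the whole gene, stood at 12.5 ± 0.225 FPKM (SD, n = 4) in Med23+/+ iOLs and at 8.26 ± 0.247 in Med23-/- iOLs, with -0.55 as the log2 fold change (adjusted p = 0.000353 by limma). FPKM counts the fragments of a gene per length of its transcript and per size of the library, so levels of different genes can be set side by side. The identity of the cells was checked on marker lists. Of 16 myelin and differentiation markers, 13 were tested and all 13 were lower in Med23-/- iOLs, 11 of them by more than 2-fold, whereas the late genes Mobp, Mal and Opalin lay near 0 in both genotypes. The OPC markers Pdgfra and Cspg4 were higher by 1.47 and 1.39 on the log2 scale, the other 5 of 7 did not pass the test, and microglia and endothelial markers reached at most 1.06 and 0.496 FPKM. Of 8 astrocyte markers, 3 were lower (Aqp4, Gfap and Fgfr3), 1 was higher (Slc1a2) and 4 did not pass. Of 8 neuron markers, 7 were higher in Med23-/- iOLs, and their summed level ran from 43.8 to 72.5 FPKM in Med23+/+ and from 91.9 to 197 FPKM in Med23-/- libraries. Among all genes tested, 14.1% were lower and 15.9% were higher at an adjusted p under 0.05 by limma. With a fold above 2 as well, 1.75% were lower and 2.98% were higher. Xist, the RNA of the inactive X chromosome, was above 100 FPKM in 1 library of each genotype.

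Galactolipid and sphingolipid enzyme RNA was lower in Med23-/- iOLs as a sum, from 452 to 527 FPKM in Med23+/+ libraries to 247 to 296 FPKM, and the loss was uneven along the pathway. Ugt8a, Gal3st1 and Fa2h, which make the galactose head group, its sulfate and the hydroxylated fatty acids of myelin lipids, were lower by more than 2-fold. Degs1, at the last step to ceramide, and the ceramide synthase gene Cers2 were lower by less than 2-fold, whereas the ceramide synthase gene Cers5 was slightly higher. Sptlc1, Sptlc2, Ugcg and Sgms1, at the entry and at the competing branches, did not pass the test. Their changes were not alike. Sgms1, at a log2 fold change of -0.44, lay next to Cers2 at -0.43, and Sptlc2 was at -0.24. Sptlc1 and Ugcg were at 0.02 and 0.01.

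All 10 genes passed the filter of a mean of 1 FPKM over the 8 libraries, and differences were tested by limma on log2(FPKM + 1) across 12328 genes, with Benjamini-Hochberg adjustment. At an adjusted p under 0.05, 5 of the 10 were lower, against 14.1% of all genes tested, and 1 of the 10 was higher, against 15.9%. With a fold change above 2 as well, 3 of 10 were lower, against 1.75%, and 0 of 10 were higher, against 2.98%. At an unadjusted p under 0.05, 7 were lower, against 20.3% of all genes, and 1 was higher, against 21.1%. The libraries of the genotypes did not overlap for 4 genes that were lower, against 15.3% of all genes, and for 1 gene that was higher, against 16.3%. The median log2 fold change was -0.44 over the 10 genes and -0.01 over all genes tested. Because the 10 genes were chosen with earlier results of these data known, these shares are description only. In bulk RNA, fewer cells that express a gene and less RNA per cell cannot be told apart, and the fall of the 13 differentiation markers accompanied every member that was lower. Its part in these results was not tested.

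The neuron markers moved with genotype as well. Their mean level was 2.29 to 2.85 in Med23+/+ libraries and 3.08 to 4.33 in Med23-/- libraries on the log2(FPKM + 1) scale, highest in Med23-/- replicates 3 and 4, so that the genotypes did not overlap. With this level as a covariate, a model added after the data were seen, 0 of the 10 genes were lower, against 1.05% of all genes, and 0 were higher, against 0.941%, by limma. At an unadjusted p under 0.05, 5 were lower in this model, against 8.91%, and 0 were higher, against 7.67%. The log2 fold changes were then -0.81 for Ugt8a (SE 0.28, adjusted p = 0.187), -0.82 for Gal3st1 (SE 0.23, 0.115), -1.13 for Fa2h (SE 0.34, 0.13), -0.77 for Degs1 (SE 0.2, 0.0881) and -0.8 for Sgms1 (SE 0.29, 0.208). Sgms1, at -0.44 without the covariate, was thus as low in this model as Ugt8a, Gal3st1 and Degs1. The other members were at -0.53 (Cers2), -0.32 (Sptlc2), 0.23 (Cers5), 0.04 (Sptlc1) and 0.03 (Ugcg). Med23 itself was then at -0.62 (adjusted p = 0.0583), and among all genes tested the same model left 130 lower and 116 higher. In replicates 1 and 2 alone, where the neuron markers were less far apart, 5 of the 10 were lower, against 6.46% of all genes, namely Ugt8a (-1.03), Gal3st1 (-0.86), Fa2h (-1.32), Degs1 (-0.78) and Sgms1 (-0.5), and 0 were higher by limma, against 7.38%. At an unadjusted p under 0.05, 6 were lower there, against 14.5%, and 0 were higher, against 16.0%.

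**Figure D1:**
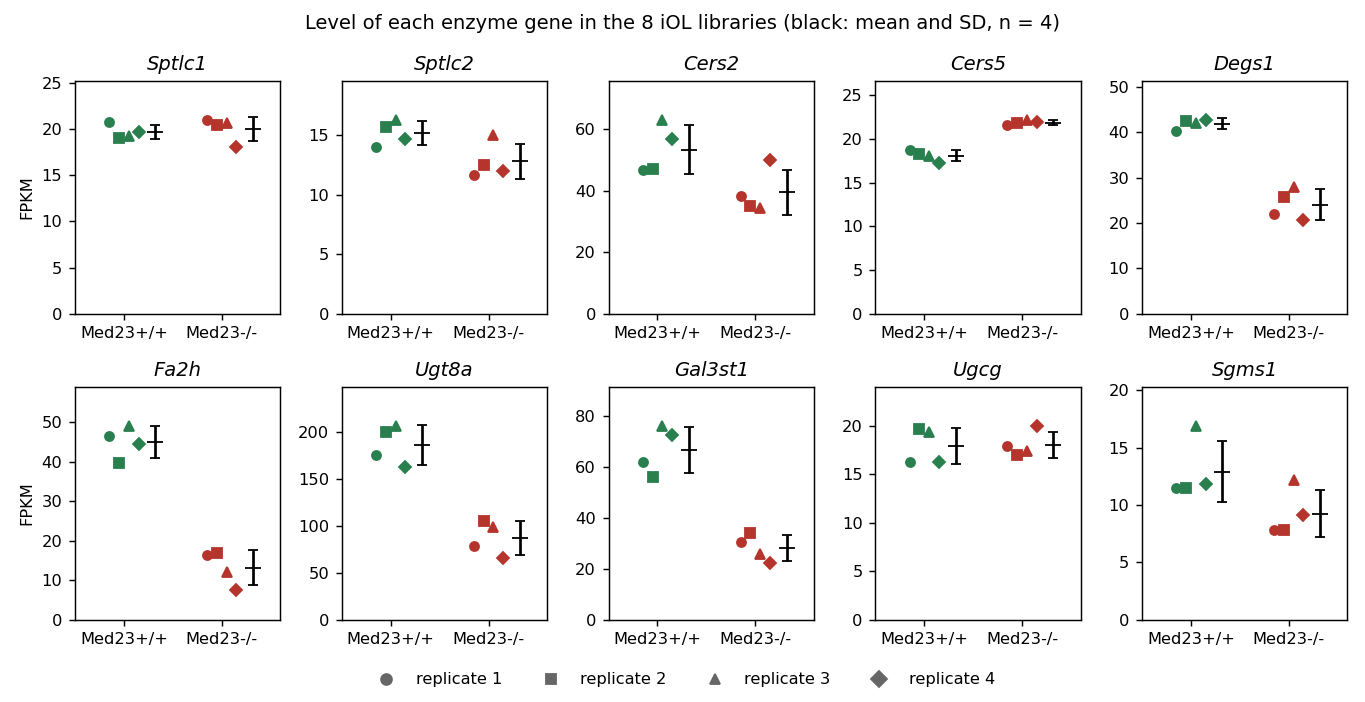
FPKM of each of the 10 enzyme genes (y axis, linear and from 0, its scale set per gene) in the 4 Med23+/+ (green) and 4 Med23-/- (red) iOL libraries, with a symbol for each replicate number and the mean and SD in black. Ugt8a, Gal3st1, Fa2h and Degs1 are lower and Cers5 is higher in Med23-/- iOLs without overlap, and the other 5 genes overlap.

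Ugt8a encodes the UDP-galactose:ceramide galactosyltransferase, the enzyme that makes galactosylceramide. Its gene lies on chromosome 3 from 125865271 to 125938619, on the minus strand of mm10. Ugt8a read 175, 200, 206 and 162 FPKM in Med23+/+ replicates 1 to 4 and 78.7, 105, 98.5 and 65.2 FPKM in Med23-/- replicates 1 to 4. Every Med23-/- library lay below every Med23+/+ library, and Med23-/- replicate 4 was the lowest. The means were 186 ± 21 and 86.8 ± 18.3 FPKM (SD, n = 4), a drop of 53.3%, and the log2 fold change was -1.11 (SE 0.15, 95% interval -1.44 to -0.77, limma adjusted p = 0.00066). The exact permutation test gave p = 0.0286, the smallest that 4 libraries against 4 allow. Ugt8a remained the most abundant of the 10 transcripts in both genotypes, and in Med23+/+ iOLs it exceeded 97.2% of all genes tested.

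Gal3st1, on chromosome 11 from 3983636 to 3999326, encodes the cerebroside sulfotransferase that turns galactosylceramide into sulfatide. It stood at 62, 56.2, 76.1 and 72.4 FPKM in the Med23+/+ libraries and at 30.4, 34, 26 and 22.3 FPKM in the Med23-/- libraries. The highest Med23-/- value, in replicate 2, was well under the lowest Med23+/+ value. The mean went from 66.7 ± 9.18 to 28.1 ± 5.11 FPKM (SD, n = 4), with a log2 fold change of -1.22 (SE 0.14, interval -1.54 to -0.91, adjusted p = 0.000257 by limma; exact permutation p = 0.0286).

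Fa2h encodes fatty acid hydroxylase, which supplies the hydroxylated fatty acids of myelin galactolipids. Its gene occupies chromosome 8 from 111345135 to 111393824. Its levels were 46.6, 39.7, 49.1 and 44.5 FPKM in Med23+/+ iOLs and 16.4, 16.9, 12 and 7.64 FPKM in Med23-/- iOLs. The Med23-/- replicates 3 and 4, where the neuron markers were highest, had the lowest Fa2h. The mean dropped by 70.6%, from 45 ± 4.01 to 13.2 ± 4.33 FPKM (SD, n = 4), and the log2 fold change was -1.74 (SE 0.21, interval -2.21 to -1.28, adjusted p = 0.000302 by limma; exact permutation p = 0.0286). Fa2h was the fourth most abundant member in Med23+/+ iOLs and the eighth in Med23-/- iOLs, where its libraries overlapped those of Sptlc2.

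Degs1 (chromosome 1, 182275772 to 182282804) encodes the dihydroceramide desaturase, which introduces the double bond of ceramide and so acts before every head group. The Med23+/+ libraries were tightly grouped at 40.3, 42.6, 42.1 and 42.8 FPKM. The Med23-/- libraries read 21.9, 25.8, 27.9 and 20.6 FPKM, all below. With means of 41.9 ± 1.15 and 24 ± 3.39 FPKM (SD, n = 4), the log2 fold change was -0.79 (SE 0.1, interval -1.01 to -0.57, adjusted p = 0.000405 by limma; exact permutation p = 0.0286), under the 2-fold limit.

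The ceramide synthases choose the fatty acid. Cers2 prefers the very long chains that are abundant in myelin lipids, and Cers5 prefers palmitoyl-CoA, a shorter chain. Cers2 (chromosome 3, 95314791 to 95323599) read 46.6, 47.1, 63 and 56.6 FPKM in Med23+/+ and 38.1, 35, 34.5 and 50 FPKM in Med23-/- libraries. Med23-/- replicate 4 lay within the Med23+/+ range, and the other 3 lay below it. The means were 53.4 ± 7.9 and 39.4 ± 7.22 FPKM (SD, n = 4), the log2 fold change was -0.43 (SE 0.14, interval -0.74 to -0.12, adjusted p = 0.0394 by limma), and the exact permutation test gave p = 0.0857. This call was lost in 5 of the 8 fits that left out 1 library, namely without Med23+/+ replicate 3 or 4 or without Med23-/- replicate 1, 2 or 3, with adjusted p from 0.00801 to 0.104 over the 8 limma fits. Exons of Cers2 share 219 bases with 6330562C20Rik and Setdb1 on the opposite strand, and the counting is not stated to use strand.

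Cers5 (chromosome 15, 99734881 to 99772885) went the other way. Its levels were 18.7, 18.3, 18.1 and 17.2 FPKM in Med23+/+ and 21.6, 21.8, 22.2 and 21.9 FPKM in Med23-/- iOLs. The shift was small but the spread was smaller, and the genotypes did not overlap. The means were 18.1 ± 0.653 and 21.9 ± 0.229 FPKM (SD, n = 4), and the log2 fold change was 0.26 (SE 0.06, interval 0.12 to 0.4, adjusted p = 0.0128 by limma; exact permutation p = 0.0286). In replicates 1 and 2 alone it was 0.22 with an adjusted p of 0.221 by limma. Cers4, a further ceramide synthase gene, rose from 6.43 ± 0.534 to 9.88 ± 0.443 FPKM (SD, n = 4; log2 fold change 0.55, adjusted p = 0.00104 by limma), whereas Cers6 stood at 4.17 ± 0.59 and 5.4 ± 0.884 FPKM and did not pass the test (adjusted p = 0.105 by limma).

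As a share of the summed FPKM of Cers2 to Cers6, Cers2 took 61.1, 61.3, 68.6 and 66.5% in the Med23+/+ libraries and 50.4, 49.3, 47 and 56.7% in the Med23-/- libraries. The means were 64.4% ± 3.74 and 50.8% ± 4.16 (SD, n = 4), and the genotypes did not overlap. With Cers1 in the sum, the shares were 52.6% ± 7.49 and 44.3% ± 4.15 and overlapped, and their difference of -8.34 percentage points was -4.84 without Med23+/+ replicate 4. Cers1 was left out after its values were seen. It ran from 4.54 to 34.7 FPKM in Med23+/+ libraries and from 0.00541 to 17.8 FPKM in Med23-/- libraries, and its exons overlap those of Gdf1 on the same strand, so reads of both cannot be separated.

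Sptlc1 and Sptlc2 encode the core subunits of serine palmitoyltransferase, the entry to the whole pathway. Sptlc1 (chromosome 13, 53332748 to 53377397) read 20.8, 19, 19.2 and 19.7 FPKM in Med23+/+ and 21, 20.4, 20.6 and 18.1 FPKM in Med23-/- libraries. The genotypes overlapped fully, with a log2 fold change of 0.02 (interval -0.14 to 0.19, adjusted p = 0.848 by limma). Sptlc2 (chromosome 12, 87305058 to 87388355) read 14, 15.7, 16.3 and 14.7 FPKM in Med23+/+ and 11.7, 12.5, 15 and 12 FPKM in Med23-/- libraries. Med23-/- replicate 3 lay inside the Med23+/+ range and the other 3 below it. Its log2 fold change was -0.24 with an interval of -0.44 to -0.03, and it missed the threshold at an adjusted p of 0.0845 by limma. Without Med23-/- replicate 3 the adjusted p of Sptlc2 was 0.024 by limma.

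At the branches that compete with Ugt8a for ceramide, Ugcg makes glucosylceramide and Sgms1 makes sphingomyelin. Ugcg (chromosome 4, 59189257 to 59222833) read 16.3, 19.7, 19.4 and 16.3 FPKM in Med23+/+ and 17.9, 17, 17.4 and 20 FPKM in Med23-/- libraries, with overlap. The log2 fold change was 0.01 (interval -0.19 to 0.22, adjusted p = 0.925 by limma). Sgms1 (chromosome 19, 32122727 to 32389714) read 11.5, 11.5, 16.9 and 11.8 FPKM in Med23+/+ and 7.83, 7.87, 12.2 and 9.13 FPKM in Med23-/- libraries. Replicate 3 was the highest in each genotype, and the Med23-/- one lay within the Med23+/+ range. The log2 fold change of -0.44 (interval -0.8 to -0.09) missed the threshold at an adjusted p of 0.0621 by limma, with an exact permutation p of 0.114, and was -0.57 with an adjusted p of 0.0188 by limma without Med23-/- replicate 3. Exons of Sgms1 share 10 bases with 2700046G09Rik on the opposite strand.

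Ratios within a library show how the levels of these enzymes moved against each other, and they are given as values without a test. Ugt8a over Ugcg, galactose against glucose, was 10.7, 10.2, 10.6 and 9.94 in the Med23+/+ libraries and 4.4, 6.17, 5.67 and 3.25 in the Med23-/- libraries. The Med23+/+ ratios were nearly equal, at 10.4 ± 0.366 (SD, n = 4), whereas the Med23-/- ratios were lower and more scattered, at 4.87 ± 1.31. Ugt8a over Sgms1 was 14.6 ± 2.21 and 9.65 ± 2.75, with overlap between the genotypes. Fa2h over Degs1 was 1.16, 0.931, 1.17 and 1.04 in Med23+/+ and 0.748, 0.656, 0.43 and 0.371 in Med23-/- libraries, so Fa2h was lower relative to Degs1 in every Med23-/- library. Sptlc2 over Sptlc1 was 0.776 ± 0.0809 and 0.64 ± 0.072 (SD, n = 4) and overlapped.

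**Figure D2:**
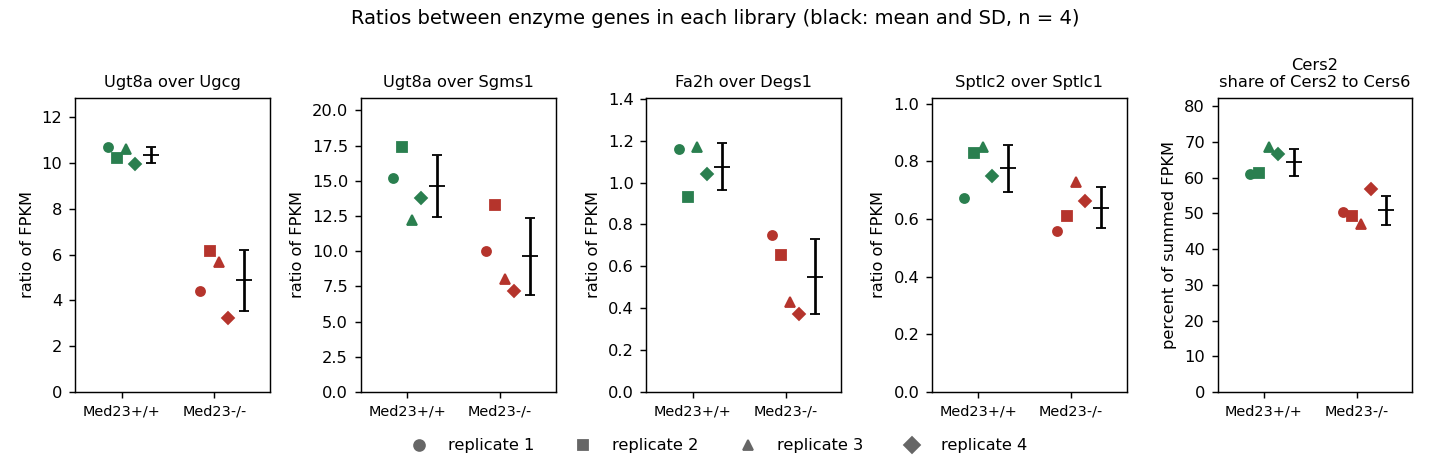
Ratios of FPKM between enzyme genes, and Cers2 as a percent of the summed FPKM of Cers2 to Cers6 (y axes, linear and from 0), in each of the 4 Med23+/+ (green) and 4 Med23-/- (red) iOL libraries, with the mean and SD in black. The genotypes separate for Ugt8a over Ugcg, Fa2h over Degs1 and the Cers2 share, and overlap for Ugt8a over Sgms1 and Sptlc2 over Sptlc1. Cers1 was left out of the share after its values were seen, and with Cers1 in the sum (not drawn) the genotypes overlap.

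In the order of levels in Med23+/+ iOLs, Ugt8a came first without overlap with the next gene. Gal3st1, Cers2, Fa2h and Degs1 followed, each overlapping its neighbour, from 66.7 down to 41.9 FPKM. The remaining 5 genes lay between 19.7 FPKM (Sptlc1) and 12.9 ± 2.67 FPKM (Sgms1). In Med23-/- iOLs, Cers2 moved to the second place without overlap with Gal3st1 at the third, and Cers5 at 21.9 FPKM stood directly under Degs1 at 24 FPKM, with overlap.

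The rest of the pathway was listed as 55 further genes. Of these, 44 were tested, 2 were lower, against 14.1% of all genes tested, 6 were higher, against 15.9%, and 36 did not pass. Their median log2 fold change was 0.13, from -1.02 (Cers1, adjusted p = 0.446 by limma) to 1.37 (St8sia5). With the fold limit, 0 were lower and 1 was higher, against 1.75% and 2.98%, and at an unadjusted p under 0.05 there were 4 lower, against 20.3%, and 15 higher, against 21.1%. Of the 8 genes called, 2 (Cers4 and Smpd3) also passed in replicates 1 and 2 alone and 6 did not, and with the neuron marker covariate 0 passed by limma. The 11 genes under the filter were Sptlc3, Sptssb, Cers3, Sgms2, Asah2, Acer1, Acer2, Sphk1, S1pr3, S1pr4 and S1pr5. Sgms2, the other sphingomyelin synthase gene, stood at 0.421 and 0.306 FPKM, against 12.9 and 9.26 FPKM for Sgms1.

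Among the 11 tested genes for the base and ceramide, Ormdl2, which encodes an inhibitor of serine palmitoyltransferase, fell from 13 ± 1.13 to 9.19 ± 1.37 FPKM (SD, n = 4; log2 fold change -0.47, adjusted p = 0.00957 by limma). Its relatives Ormdl1 and Ormdl3 had log2 fold changes of 0.32 and 0.3 that did not pass the test, and the small subunit gene Sptssa had -0.19. Asah1, the acid ceramidase gene of the lysosome, fell from 48 ± 5.21 to 37.1 ± 4.24 FPKM (SD, n = 4; log2 fold change -0.36, adjusted p = 0.0259 by limma). The call for Asah1 was lost in 4 of the 8 limma fits that left out 1 library, namely without Med23+/+ replicate 2 or 3 or Med23-/- replicate 1 or 2, with adjusted p from 0.0129 to 0.0726. Of the genes that act on sphingomyelin, Smpd3, a neutral sphingomyelinase gene, rose from 5 ± 0.798 to 7.92 ± 0.652 FPKM (SD, n = 4; log2 fold change 0.58, adjusted p = 0.00421 by limma) and the other 4 tested did not pass.

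The glucosylceramide and ganglioside list had 15 tested genes. By limma, 0 were lower, against 14.1% of all genes tested, and 2 were higher, against 15.9%. These 2 were the sialyltransferase genes St3gal2 and St8sia5. St8sia5 read 2.75, 1.43, 2.28 and 2.77 FPKM in Med23+/+ and 5.32, 3.43, 13.4 and 11.4 FPKM in Med23-/- libraries. It was highest in the Med23-/- replicates 3 and 4, the libraries with the most neuron marker RNA. The log2 fold change was 1.37 (SE 0.34, adjusted p = 0.0148 by limma), and -0.29 (adjusted p = 0.568) with the neuron marker level as a covariate. St3gal2 had a log2 fold change of 0.28 (adjusted p = 0.0329 by limma). That call was lost in 5 of the 8 limma fits that left out 1 library, namely all but those without Med23+/+ replicate 1, Med23-/- replicate 2 or Med23-/- replicate 3, with adjusted p from 0.0336 to 0.0873.

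The breakdown of galactolipids takes place in lysosomes. Galc, the galactosylceramidase gene, stood at 14.6 ± 1.6 and 13.9 ± 1.58 FPKM (SD, n = 4; log2 fold change -0.06, adjusted p = 0.684 by limma), and Arsa, the arylsulfatase gene that acts on sulfatide, at 4.45 ± 0.204 and 3.86 ± 0.614 FPKM (-0.18, adjusted p = 0.253). Neither passed the test. Sumf1, which activates sulfatases, had a log2 fold change of 0.31 (adjusted p = 0.0186 by limma), a call lost without Med23-/- replicate 2 (adjusted p = 0.0502) and after quantile normalization (0.0635), with adjusted p from 0.0249 to 0.0502 over the 8 fits that left out 1 library. In the signalling arm, the sphingosine 1-phosphate receptor gene S1pr1 rose from 4.06 ± 0.991 to 8.38 ± 1.42 FPKM (SD, n = 4; log2 fold change 0.9, adjusted p = 0.00306 by limma). S1pr5, the receptor known from mature OLs, was at 0.4 and 0.482 FPKM and was not tested.

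**Figure D3:**
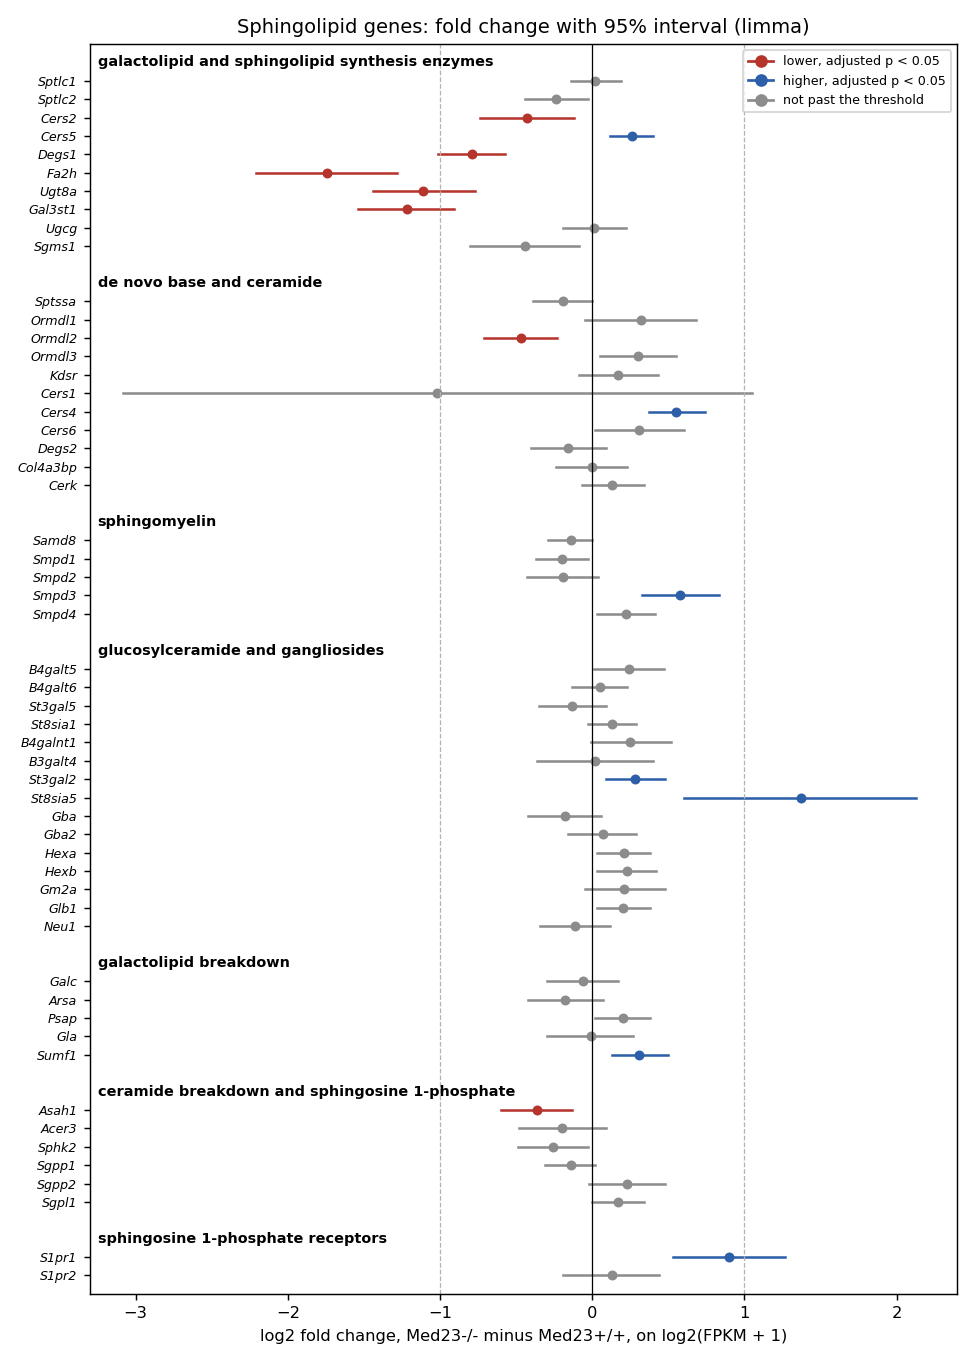
Log2 fold change of Med23-/- over Med23+/+ iOLs on log2(FPKM + 1) (x axis) with its 95% interval for the 10 enzyme genes and the 44 tested genes of the rest of the pathway, grouped by step (y axis). Dashed lines mark 2-fold, and the genes lower by more than 2-fold, Fa2h, Gal3st1 and Ugt8a, lie at -1.74, -1.22 and -1.11.

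The profile of Ugt8a over the 8 libraries was compared with those of the 9434 genes whose mean reached 5 FPKM, by the Pearson correlation of log2(FPKM + 1), as a measure of likeness with no test. The correlation holds both the difference between the genotypes, which all 8 points share, and the variation within each genotype. The most similar genes were Rictor (0.996), Svip (0.994), Soat1 (0.994), Hmgcs1 (0.993) and 9630013A20Rik (0.993). With each genotype's mean removed, the same genes stood at 0.974, 0.955, 0.963, 0.951 and 0.944, in that order. They were picked on a correlation that includes this variation. Rictor encodes a subunit of the mTORC2 kinase complex, Soat1 an enzyme that esterifies cholesterol, and Hmgcs1 an early enzyme of cholesterol synthesis. Among the pathway members the closest was Degs1 at 0.977, followed by Fa2h at 0.949, Gal3st1 at 0.937 and Sptlc2 at 0.843, while Ugcg was at -0.106. After each genotype's mean was removed, Degs1 stood at 0.812 with Ugt8a, Sptlc2 at 0.641, Fa2h at 0.586, Gal3st1 at 0.454, Sptlc1 at 0.383, Sgms1 at 0.307, Cers5 at 0.268, Ugcg at -0.117 and Cers2 at -0.577.

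**Figure D4:**
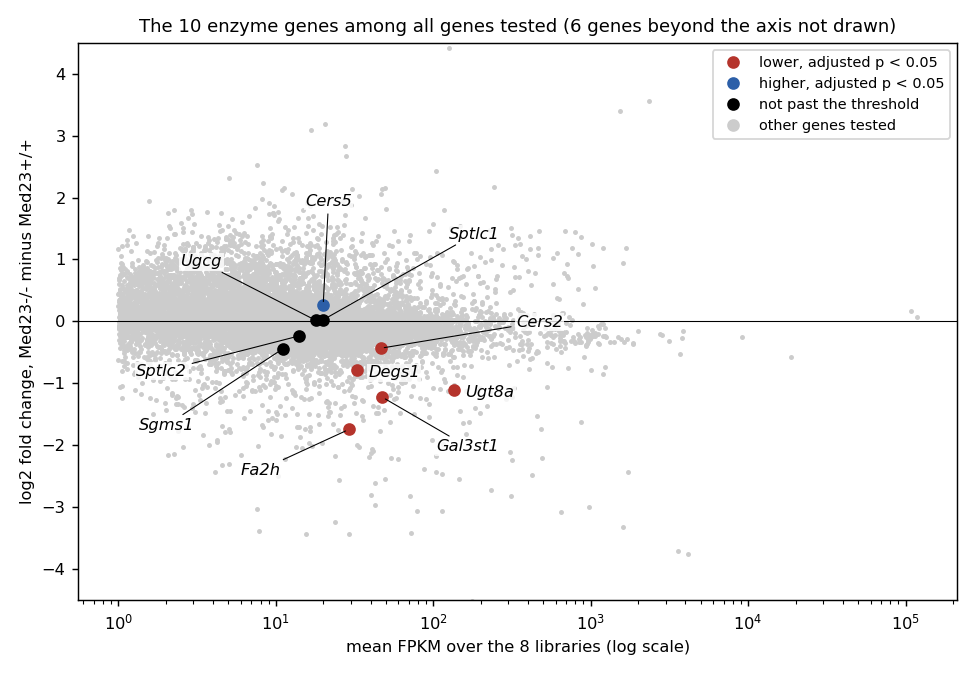
Log2 fold change of Med23-/- over Med23+/+ iOLs (y axis) against the mean FPKM over the 8 libraries (x axis, log scale) for the 12328 genes tested (grey), with the 10 enzyme genes in colour by their call. Fa2h, Gal3st1, Ugt8a and Degs1 lie below the dense cloud, at -1.74, -1.22, -1.11 and -0.79, and Sptlc1 and Ugcg lie at 0.02 and 0.01.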

How the data were processed

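The 10 genes and every gene list were chosen with earlier results of these data known. Per the study's methods, reads were trimmed (cutadapt), mapped to mm10 (TopHat2, default settings) and quantified by the authors in Cuffdiff, which corrected fragment bias and weighted multiply mapped reads. Tool versions, gene annotation and library normalization are not given in the sources used here. The authors deposited FPKM values for 24346 genes in 8 libraries, without counts, so depth is unknown. The most frequent ratio between low values gave a rough guess that 1 read was worth 0.745 to 1 relative to Med23+/+ replicate 1. That ratio held few of the genes compared, such as 21 of 483 for Med23-/- replicate 3. Median-ratio factors ran from 0.977 to 1.02. The authors' mean per genotype, fold changes, p-values and q-values were not used, and 0 library columns were left out.

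The 12328 genes whose mean reached 1 FPKM were compared, 4 libraries against 4, on log2(FPKM + 1) with limma 3.58.1 in R 4.3.3 (lmFit, eBayes with a variance trend, no covariate, no further scaling). Fold changes on this scale understate the change of low genes. Benjamini-Hochberg adjustment ran over all genes tested, and calls used an adjusted p under 0.05, alone or with a fold above 2. The permutation tests were exact and two-sided. The fit was tested on simulated data for 12328 genes with 200 changed by 1.5 on the log2 scale. With both limits, the adjusted p and the fold above 2, it called 195 of them and 0 others. These counts do not cover calls by adjusted p alone. Genes named are the 10 members, Med23, pathway genes that passed or that mark the ends of a range or 0, marker genes at the ends of a range or past both limits, and the 5 genes most like Ugt8a. Values of Ormdl1, Ormdl3, Sptssa, Cers6, Sgms2, Galc, Arsa and S1pr5 were added after they were seen. Coordinates come from GENCODE vM21 (mm10) and promoter sequences from RefSeq (GRCm38.p6), with orientation checked against transcripts. In this check, the Degs1 window and 1 of the Sgms1 windows matched no transcript. Whether same-numbered replicates are pairs is not stated, and their deviations correlated at 0.13, -0.096, -0.026 and 0.159, which does not settle it. Software was Python 3.11.15 with pandas 2.3.3, numpy 2.4.6, matplotlib 3.10.9 and scipy 1.17.1. Alternatives were a pseudocount of 0.1, other filters, other scalings, no trend, array weights, the replicate block, covariates and leaving out each library. Chosen after seeing the data were the neuron marker covariate, replicates 1 and 2 alone, and leaving out Cers1.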

Additional observations from a re-analysis of the deposited data

Results flagged for a closer look

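Sgms1 in Med23+/+ replicate 3 stood apart from its group, at 16.9 FPKM against 11.5 to 11.8 FPKM in the other 3 libraries, and the gap was 0.945 of the whole range of the group, above the 95% critical value of Dixon's test for 4 samples. Of 48 groups of 4 libraries examined in this way, 1 passed the limit, and chance gives about 2.4. Without this library the log2 fold change of Sgms1 was -0.31.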

How the results depend on the processing

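Ugt8a, Gal3st1, Fa2h and Degs1 kept their direction and their call by adjusted p in all alternatives except the neuron marker covariate. The fold limit was also missed by Ugt8a without Med23-/- replicate 4 (-0.98) and by Gal3st1 in replicates 1 and 2 alone (-0.86). Under that covariate the log2 fold changes were -0.81 for Ugt8a, -0.82 for Gal3st1, -1.13 for Fa2h, -0.77 for Degs1, -0.53 for Cers2, -0.8 for Sgms1 and 0.23 for Cers5, none past the threshold by limma. Members lower and higher were then 0 and 0, with 0 past the fold limit. The pathway list had 0 lower, 0 higher and 0 higher past the fold limit, St8sia5 turned to -0.29, and all genes counted 130 lower and 116 higher, 101 and 97 past the fold limit. The covariate did not overlap between genotypes, and standard errors were larger under it (0.28 against 0.15 for Ugt8a).

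In replicates 1 and 2 alone, all genes counted 796 lower and 909 higher, 216 higher past the fold limit, the pathway list counted 0 lower, 3 higher and 0 past the fold limit, and 0 members were higher. Cers2 was then -0.35, Cers5 0.22, Sgms1 -0.5 (stronger) and Ugcg -0.04. This setting has fewer libraries.

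Cers2 missed the threshold without the filter (-0.43) and after quantile normalization (-0.33). Sgms1 passed it with median-ratio scaling (-0.45), array weights (-0.47), a covariate that sets replicates 1 and 2 against the other two (-0.44), and the replicate block (-0.44). The replicate block also brought Sptlc2 past it (-0.24). Whether the replicate numbers pair the samples is not stated, and 3 of 8 libraries correlated best with their own number. Genes higher were 1281 with a mean of at least 5 FPKM and 654 past the fold limit with a pseudocount of 0.1. The pathway list had 1 lower after quantile normalization, 10 higher with array weights and 2 past the fold limit with a pseudocount of 0.1. The causes were not tested.

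Leaving out 1 library gave 4 to 6 members lower and 2 to 3 past the fold limit, 1 to 2 pathway genes lower (1 without Med23+/+ replicate 2 or 3 or Med23-/- replicate 1 or 2), 5 to 7 higher and 1 to 2 past the fold limit (2 without Med23+/+ replicate 1 or Med23-/- replicate 1). Log2 fold changes ranged from -0.55 to -0.35 for Cers2, -0.31 to -0.2 for Sptlc2, -0.57 to -0.31 for Sgms1 and -0.03 to 0.06 for Ugcg, which turned to -0.03 without Med23+/+ replicate 1, Med23+/+ replicate 4 or Med23-/- replicate 4. Scaling moved the median of all genes by less than 0.1 on the log2 scale. Without counts, the error from depth could not be separated from the spread between libraries.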
